A study of Mus musculus with 69 samples.

Results

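Cish, which encodes the protein CIS, and its relatives Socs1, Socs2 and Socs3 are 4 of the 24311 genes in the RNA-seq count tables, and they were picked by their symbols. All 4 have a row in each of the 3 tables, one for CD8+ T cells, one for naive CD4+ T cells and one for retrovirally transduced cells. The mice had 3 genotypes, WT (Stat5a+/+ Stat5b+/+), AAB (Stat5a-/- Stat5b+/-) and BBA (Stat5a+/- Stat5b-/-), so that AAB animals lack STAT5A and have 1 intact Stat5b allele, while BBA animals lack STAT5B and have 1 intact Stat5a allele. The deletions were germline and were present in all cells of the animal, and the mice were 8 to 16 weeks old. CD8+ T cells were sorted from combined lymph nodes and spleens as naive (Tnv, with low CD44 and high CD62L), memory (Tcm, with high CD44 and high CD62L) or effector (Tem, with high CD44 and low CD62L) cells. Tnv and Tcm were taken without cytokine or after IL-7 or IL-15, and Tem without cytokine or after IL-15, which gives 8 conditions with 2 libraries per genotype. Naive CD4+ T cells were sampled without cytokine (3 WT, 2 AAB and 2 BBA libraries) and with IL-7 (3 WT, 2 AAB and 3 BBA libraries). Cytokine was given at 10 ng/ml, for 12 to 16 h in the labels and up to 18 h in the methods. For the cells without cytokine, the labels speak of culture and the methods of lysis directly ex vivo, so a change with cytokine and a change with culture cannot be told apart. The last set was made from activated AAB cells that received a constitutively active STAT5A (CA-STAT5A) or the empty vector, with 2 libraries each, and had been grown in IL-2 before the transduced cells were sorted by GFP.

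SOCS-family proteins close a negative feedback loop on cytokine receptors. Cytokine binding activates JAK kinases, which phosphorylate STAT proteins such as STAT5A and STAT5B, and the STAT dimers then enter the nucleus and induce, among many other genes, the inhibitors of the same receptors. Every member carries an SH2 domain, which binds phosphotyrosine, and a SOCS box, which recruits elongins and a cullin and so marks bound proteins for degradation. SOCS1 and SOCS3 have in addition a short region that inhibits JAK kinases directly, and CIS and SOCS2 lack it. In T cells, CIS is known as a brake on IL-2 and antigen receptor signaling, SOCS1 as a brake on common gamma chain cytokines and interferon gamma, SOCS3 as a brake on receptors that use gp130, and SOCS2 is best known for its action on the growth hormone receptor.

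In the GRCm38 annotation Cish (ENSMUSG00000032578) lies at chr9:107296026-107302784 on the plus strand, Socs1 (ENSMUSG00000038037) at chr16:10782240-10785536, Socs2 (ENSMUSG00000020027) at chr10:95385362-95417180 and Socs3 (ENSMUSG00000053113) at chr11:117966079-117970047, the last 3 on the minus strand. Exons of Cish overlap the gene span of Gm17040 by 1167 bases and that of Gm17041 by 1459 bases, both on the opposite strand and neither a row of the tables. Whether the counting used strand is not given in the sources used here, so reads of Cish and of these transcripts could not be separated, and Cish is uncertain to that extent. STAT5 binds the GAS motif, here searched as TTCNNNGAA, which has the same letters on both strands, in RefSeq promoters of GRCm38.p6 from 250 bases before to 50 bases after the gene start as RefSeq gives it, which for Cish and Socs3 lies 633 and 681 bases inside the gene spans above. Promoters of 3 of the 4 genes could be matched, and the windows that hold a match are shown because they carry the letters that STAT5 is known to bind in genes it induces. Capitals mark the motif, and 10 bases are given on either side.
Cish, first match, chr9:107296649-107296677, plus strand: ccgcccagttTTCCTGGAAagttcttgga
Cish, second match, chr9:107296660-107296688, plus strand: tcctggaaagTTCTTGGAAatctgtcaaa
Socs3, chr11:117969502-117969530, minus strand: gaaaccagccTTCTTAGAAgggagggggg
The matches of Cish begin at bases 1 and 12 from the RefSeq start and do not overlap, and the match of Socs3 begins 154 bases before its RefSeq start. The window of Socs1 holds none. Of 32851 promoters of this length, 2726 (8.30%) hold at least 1 match and 150 (0.457%) hold at least 2. A match is a description of the letters and was not tested as a binding site.

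Total counts on genes ranged from 5926139 to 25612758 in the CD8+ libraries, from 6705004 to 34118295 in the CD4+ libraries and from 11020965 to 16516525 in the transduced libraries. In the CD8+ table Stat5a was at 0.981 to 5.13 CPM (counts-per-million) in AAB, 31.1 to 51.6 in BBA and 32.2 to 110.0 in WT. In the same libraries Stat5b was at 49.0 to 87.4 CPM in BBA, 80.5 to 132 in AAB and 167 to 360.3 in WT, so that Stat5a was nearly lost in AAB and Stat5b reads remained in BBA. Cd8a and Cd8b1 summed to 1243 to 3300.1 CPM in the CD8+ table, as labelled. Replicate 2 of WT Tnv with IL-15 stood apart with 242 CPM of Cd4 and 712 of Cd8a, where Cd4 had a median of 3.17 CPM over the CD8+ table, and most tests of that group are given with and without it. The libraries labelled as transduced CD8+ T cells went against that label, with 1.42 to 3.14 CPM of Cd8a, 2.84 to 14.7 of Cd3e, 1143 to 1442 of Ncr1 and 287 to 1286 of Itgam, so they are called transduced libraries here. In bulk samples like these, fewer cells of a type and less RNA per cell cannot be told apart. The study counts 2 or 3 mice per group in its RNA-seq, so p-values measure the spread between mice. The main fits do not use replicate numbers, which passed as pairing in 7 of 10 conditions. In those conditions an effect shared by a replicate number is part of that spread. By the counts of Xist and Y-linked genes the Tnv libraries with IL-7 were male and those without cytokine or with IL-15 were female, so that in Tnv IL-7 and sex cannot be told apart. Both WT libraries of Tcm with IL-7 were male, AAB and BBA had 1 male and 1 female library each there, and the other Tcm libraries were female, so that in WT Tcm IL-7 cannot be told apart from sex, and with IL-7 the WT group differed in sex from 1 library each of AAB and BBA.

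The B cell markers Cd79a and Ms4a1 moved with genotype in some of the conditions with cytokine and not in others. Their sum was 1.98 to 5.22 CPM in WT and 13.9 to 21.9 in BBA in Tnv with IL-7, and 9.68 to 19.5 in WT and 63.3 to 120.1 in BBA in Tcm with IL-7. In Tcm with IL-15 it was 48.5 to 90.2 CPM in WT and 93.9 to 198 in BBA, and in CD4+ cells with IL-7 it was 4.08 to 5.58 in WT and 7.95 to 28.0 in BBA. BBA libraries were above all WT libraries in these 4 conditions. WT and BBA overlapped in Tnv with IL-15, at 18.2 to 64.6 and 40.5 to 99.5 CPM, and in Tem with IL-15. The myeloid markers (Csf1r, Itgam and Lyz2) summed to 5.81 to 10.1 CPM in WT and 32.5 to 59.6 in BBA in Tnv with IL-15. In Tcm with IL-15 they were at 6.89 to 9.84 and 21.8 to 44.8, and they overlapped in Tem with IL-15. Cd8a and Cd8b1 summed to 2670 to 3182 CPM in WT and 1884 to 2063 in BBA in Tcm with IL-15. In Tcm with IL-7 their sum was 2825 to 2836 CPM in WT and 1784 to 2029 in BBA. In Tnv with IL-7 their sum was higher in BBA, and in Tnv and Tem with IL-15 WT and BBA overlapped. The myeloid markers in Tcm with IL-7 summed to 107 to 163 CPM in WT, 26.3 to 30.6 in AAB and 79.3 to 178 in BBA. The part of these markers in the results below was not tested.

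Per kilobase of the longest coding transcript, Socs3 had the highest level of the 4 genes in all 10 WT groups and Socs2 the lowest. In WT Tnv without cytokine the level was 79.2 CPM per kilobase for Socs3, 27.0 for Socs1, 4.91 for Cish and 0.397 for Socs2. Over the 10 WT groups Socs3 made up 47.0% to 81.8% of the summed level and Socs2 0.295% to 4.72%. The upper bound for Socs3 belongs to Tnv with IL-15, where its share was 65.5% without the library that stood apart. Socs1 came before Cish in 9 groups, and in CD4+ cells with IL-7 the order turned, with 24.1% for Cish and 17.3% for Socs1. All other levels below are CPM of the TMM-normalized library total and compare a gene only with itself. Genotype differences are fitted log2 ratios with their standard error, with WT set over AAB or BBA and AAB over BBA. The fits scale libraries on the genes past the filter and the CPM on all genes, so that the log2 ratio of mean CPM for WT over BBA exceeds the fitted value by 0.27 to 0.30 in Tcm with IL-15, 0.26 to 0.29 in Tnv with IL-15 and 0.19 to 0.22 in Tcm with IL-7, and by at most 0.13 elsewhere. The word called is kept for a change beyond 1.5-fold whose adjusted p (edgeR's quasi-likelihood test, Benjamini-Hochberg over all genes past a filter on low counts) was under 0.05.

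Of the 4 members, Cish most often had its group means in the order WT, AAB, BBA, in 8 of 8 CD8+ conditions. Socs2 had this order in 5, and Socs1 and Socs3 in 4 each. Every WT library was above every AAB and BBA library for Cish in all 8, and its BBA mean was 5.05% to 33.3% of WT. How many of all genes separate the genotypes in this way was not counted, here or where groups below do not overlap. In Tnv and in Tcm without cytokine or with IL-15 the gene passed the filter through WT and AAB and not through BBA. WT over BBA was called in 7 of the 8 conditions, where 0.206% to 23.5% of all genes tested were called in either direction, depending on the condition. WT over AAB was called in 2 of 8, against 0.0196% to 4.29% of genes.

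**Figure D1:**
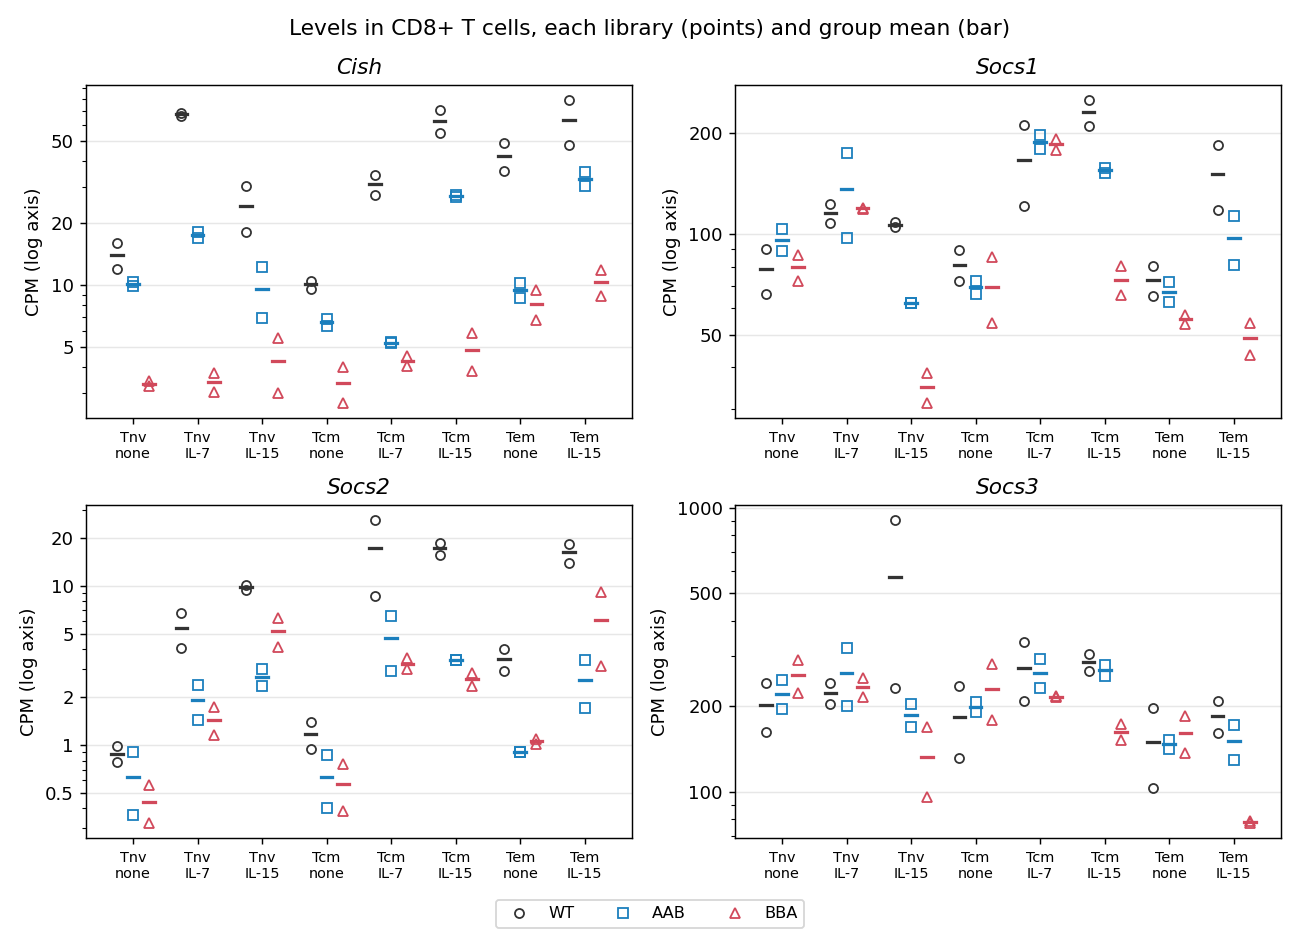
Level of each member in CD8+ T cells (y axis, CPM on a log scale) by cell state and cytokine (x axis), with a point for each library and a bar at the mean of the 2 libraries of a genotype (WT black circles, AAB blue squares, BBA red triangles). Cish falls from WT over AAB to BBA in all 8 conditions, while Socs1 separates the genotypes with IL-15 and not with IL-7, and a single WT library of Tnv with IL-15 carries Socs3 to 904 CPM.

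In Tnv without cytokine, Cish was at 16.0 and 12.0 CPM in WT, 10.4 and 9.97 in AAB and 3.23 and 3.42 in BBA. All BBA libraries were below all others, and WT and AAB did not overlap but lay close together. WT exceeded BBA by 2.06 ± 0.22 (adjusted p = 0.00494, with 2.75% of genes called) and AAB over BBA was 1.59 ± 0.22 (adjusted p = 0.0357, 0.523% of genes), whereas WT over AAB was 0.47 ± 0.20 (adjusted p = 0.638). The AAB over BBA call was lost without any of the 6 libraries, with 1.57 to 1.61 and adjusted p of 0.0532 to 0.192. With IL-7 the distance of WT from BBA was the largest of all 10 conditions. Cish was at 68.4 and 66.1 CPM in WT, 17.0 and 18.04 in AAB and 3.04 and 3.75 in BBA, so that replicates lay close together and each genotype was clear of the next. Between WT and BBA the difference was 4.29 ± 0.18 (adjusted p = 0.000595, 2.69% of genes), WT over AAB 1.97 ± 0.16 (adjusted p = 0.0136, 0.256% of genes) and AAB over BBA 2.32 ± 0.18 (adjusted p = 0.0226, 0.148% of genes). The value for WT over BBA was called without each of the 6 libraries. The WT over AAB difference was lost without either WT library, at 1.94 (adjusted p = 0.294) and 1.99 (adjusted p = 0.117), and AAB over BBA without either WT library, with 2.33 in both cases, or either BBA library, at 2.20 and 2.47, with adjusted p of 0.0818 to 0.121. With IL-15, Tnv had 18.1 and 30.2 CPM in WT, 6.95 and 12.3 in AAB and 3.02 and 5.53 in BBA, again without overlap. WT over BBA was 2.23 ± 0.43 (adjusted p = 0.0188, 9.31% of genes) and stayed called at 1.81 (adjusted p = 0.0437) without the WT library that stood apart, but was lost without BBA replicate 1, at 1.94 (adjusted p = 0.107). The difference of WT to AAB was 1.22 ± 0.40 (adjusted p = 0.213, 0.726% of genes called), and 0.79 (adjusted p = 0.581) without that WT library, and AAB over BBA was not called either (0.0706% of genes).

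In Tcm, the resting level of Cish was the lowest among WT groups. Without cytokine it was at 10.5 and 9.64 CPM in WT, 6.36 and 6.85 in AAB and 4.02 and 2.69 in BBA. The genotypes did not overlap, and WT over BBA was 1.49 ± 0.31 but was not called (adjusted p = 0.178, 0.277% of genes called). With a replicate block, which the check of the replicate numbers allowed in this condition, it was called at 1.504 (adjusted p = 0.0260). With IL-7, WT had 27.3 and 34.3 CPM, AAB 5.30 and 5.23 and BBA 4.08 and 4.56. AAB and BBA lay side by side here, and WT stood alone. WT exceeded BBA by 2.61 ± 0.30 (adjusted p = 0.0165, 3.09% of genes) and WT over AAB, with nearly the same difference of 2.42 ± 0.29, was not called (adjusted p = 0.0697, 0.0594% of genes), nor was AAB over BBA at 0.19 (0.0891% of genes). Cish passed the filter in this condition through its WT libraries alone, and the WT over BBA call was lost with a sex term, at 2.59 (adjusted p = 0.0953), and without BBA replicate 1 at 2.51 (adjusted p = 0.143) or BBA replicate 2 at 2.72 (adjusted p = 0.192). With IL-15, Cish was at 70.3 and 54.6 CPM in WT, 27.5 and 26.8 in AAB and 5.86 and 3.86 in BBA. The 3 genotypes formed separate steps. Between WT and BBA the difference was 3.42 ± 0.20 (adjusted p = 0.000121, 23.5% of genes), AAB over BBA 2.30 ± 0.20 (adjusted p = 0.00381, 5.85% of genes) and WT over AAB 1.12 ± 0.17 (adjusted p = 0.0142, 4.29% of genes). The last was lost without WT replicate 1 at 0.97, AAB replicate 1 at 1.18 or AAB replicate 2 at 1.10, with adjusted p of 0.0661 to 0.0814.

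In Tem, Cish was already high in WT without cytokine, at 48.9 and 35.7 CPM, against 10.2 and 8.67 in AAB and 9.43 and 6.81 in BBA. The deficient genotypes overlapped each other and were clear of WT. For WT over BBA the value was 2.27 ± 0.21 (adjusted p = 0.0306, 0.206% of genes) and WT over AAB 2.05 ± 0.21 (adjusted p = 0.0553, 0.0197% of genes), the latter called with the replicate block at 2.05 (adjusted p = 0.00453). The WT over BBA call was lost without either WT library, at 2.02 and 2.48, or either AAB library, at 2.27, with adjusted p of 0.0594 to 0.175. With IL-15, WT had 78.8 and 47.9 CPM, AAB 35.2 and 30.1 and BBA 11.8 and 8.84. WT over BBA was 2.55 ± 0.17 (adjusted p = 0.0168, 1.76% of genes), and it was lost without any of the 6 libraries but BBA replicate 2, with 2.35 to 2.73 and adjusted p of 0.0575 to 0.150. For WT over AAB the value was 0.94 ± 0.16 and AAB over BBA 1.62 ± 0.17, neither called (adjusted p = 0.284 and 0.157, with 0.0196% and 0.00982% of genes called) and both called with the replicate block, at 0.93 (adjusted p = 0.0200) and 1.62 (adjusted p = 0.00341).

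By group mean in WT, Cish ran from Tnv with IL-7 (67.3 ± 1.595 CPM, SD, n = 2) over Tem with IL-15 (63.4 ± 21.8), Tcm with IL-15 (62.5 ± 11.1), Tem without cytokine (42.3 ± 9.31), Tcm with IL-7 (30.8 ± 4.94), Tnv with IL-15 (24.1 ± 8.51) and Tnv without cytokine (14.0 ± 2.81) to Tcm without cytokine (10.1 ± 0.638). Libraries of neighbours in this order overlapped among the first 3 groups and between Tcm with IL-7 and Tnv with IL-15. They did not overlap at the other steps.

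**Figure D2:**
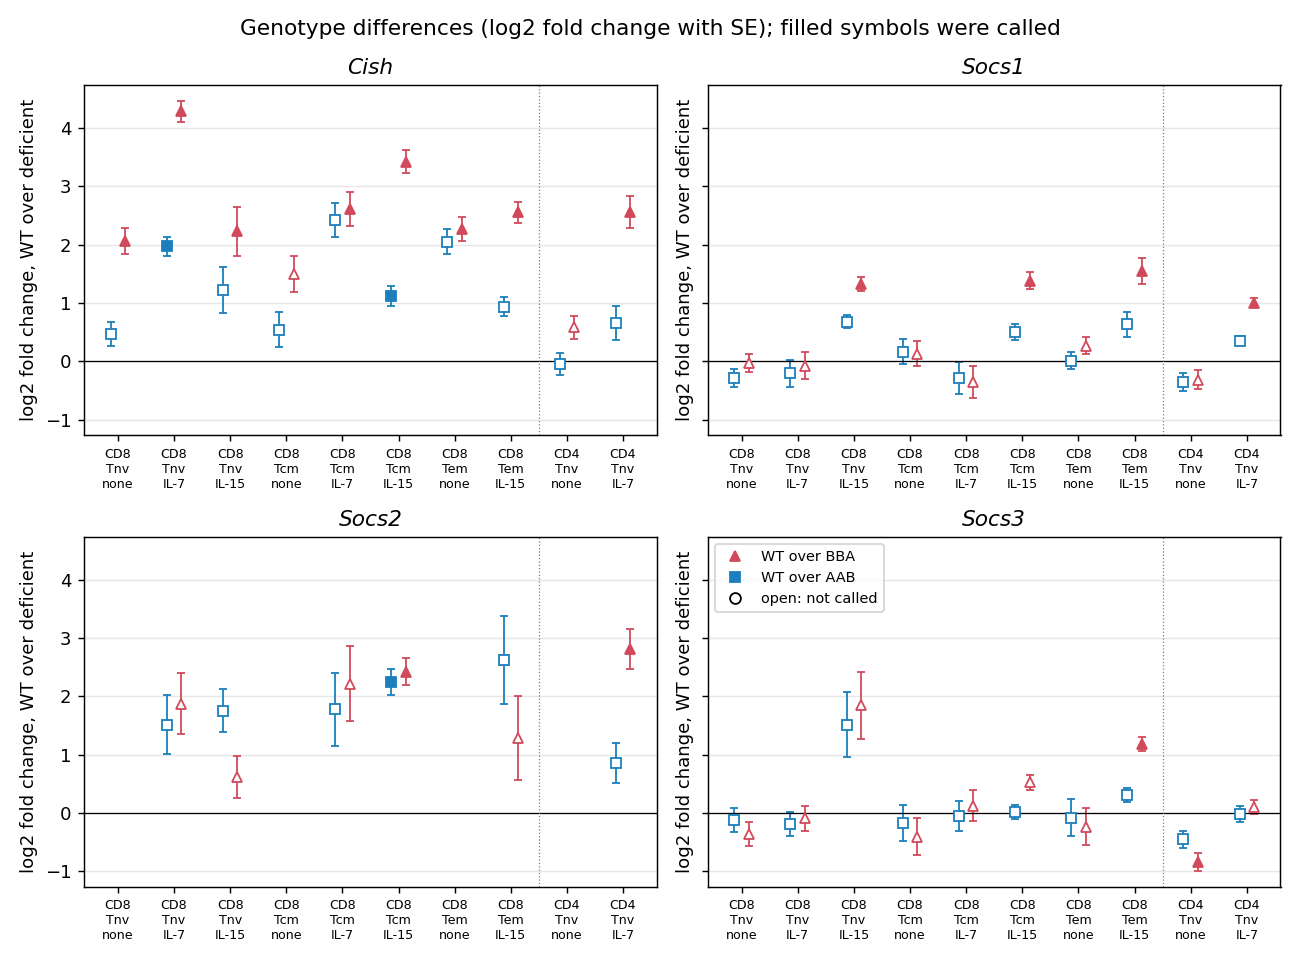
Log2 fold change of WT over BBA (red triangles) and WT over AAB (blue squares) for each member (y axis, with standard error) in the 8 CD8+ and 2 CD4+ conditions (x axis), filled where called. Cish lies above 0 for WT over BBA throughout, up to 4.29 in Tnv with IL-7, Socs1 is called with IL-15 in CD8+ cells and with IL-7 in CD4+ cells, and Socs2 has no points where it did not pass the filter.

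Socs2, which like Cish lacks the JAK inhibitory region, was the rarest member and was also lower in both deficient genotypes. Without cytokine it was at 0.783 and 0.979 CPM in WT Tnv, 1.39 and 0.951 in WT Tcm and 4.02 and 2.90 in WT Tem, which are 10 to 50 counts, and it did not pass the filter in these conditions. In AAB and BBA cells without cytokine it was at 0.323 to 1.09 CPM, and genotypes were not tested. With cytokine, WT libraries lay between 4.06 and 25.8 CPM and were above every AAB and BBA library of the same condition. With IL-7 or IL-15, in Tnv as well as in Tcm, the gene passed the filter through WT alone, so that its being tested already required a high WT level, and its genotype values are given as they stand.

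In Tcm with IL-15 Socs2 was at 18.6 and 15.6 CPM in WT, 3.42 in both AAB libraries and 2.36 and 2.84 in BBA. AAB and BBA lay side by side, far below WT. WT over AAB was 2.24 ± 0.23 (adjusted p = 0.00471) and WT over BBA 2.42 ± 0.24 (adjusted p = 0.000616), both called without each library in turn and without the filter, and AAB over BBA was 0.18 ± 0.25 (adjusted p = 0.672). These were the only genotype calls for Socs2 in CD8+ cells. Tnv with IL-15 had another order, with 9.45 and 10.1 CPM in WT, 2.35 and 3.02 in AAB and 4.14 and 6.31 in BBA, so that AAB was the lowest genotype there, and AAB over BBA was -1.13 ± 0.38 (adjusted p = 0.600). Tem with IL-15 showed the same order of means with a wide spread in BBA, with 18.3 and 14.0 CPM in WT, 1.71 and 3.43 in AAB and 3.14 and 9.11 in BBA. The WT over AAB difference was 2.62 ± 0.76 (adjusted p = 0.510) and WT over BBA 1.28 ± 0.71 (adjusted p = 0.399) in Tem, and both were called with the replicate block, at 2.77 (adjusted p = 0.0355) and 1.51 (adjusted p = 0.0414). With IL-7, Tnv had 6.74 and 4.06 CPM in WT, 2.38 and 1.43 in AAB and 1.72 and 1.15 in BBA. Tcm with IL-7 had 8.61 and 25.8 CPM in WT, 2.91 and 6.47 in AAB and 3.50 and 2.99 in BBA. The WT libraries of Tcm lay far apart, and none of these IL-7 differences was called (WT over BBA 1.88 ± 0.52 in Tnv and 2.22 ± 0.65 in Tcm, adjusted p = 0.124 and 0.101).

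Socs1, the JAK inhibitor that restrains common gamma chain cytokines, depended on the genotype in the IL-15 conditions. In Tnv with IL-15 it was at 109 and 105 CPM in WT, 62.2 in both AAB libraries and 31.2 and 38.5 in BBA. In Tcm with IL-15 it was at 210.5 and 251 CPM in WT, 157 and 153 in AAB and 65.8 and 80.1 in BBA. In Tem with IL-15 it was at 184 and 118 CPM in WT, 113 and 81.1 in AAB and 43.5 and 54.2 in BBA. In each of the 3 cell states the libraries fell into 3 steps without overlap, with AAB at 58.2% to 67.1% and BBA at 31.6% to 32.7% of the WT mean. WT over BBA was called in all 3, at 1.33 ± 0.12 (adjusted p = 0.00194, 9.31% of genes) in Tnv, 1.38 ± 0.15 (adjusted p = 0.000768, 23.5% of genes) in Tcm and 1.55 ± 0.22 (adjusted p = 0.0420, 1.76% of genes) in Tem. The Tnv value was 1.36 (adjusted p = 0.00532) without the WT library that stood apart. The Tem call was lost without any of the 6 libraries, with 1.29 to 1.86 and adjusted p of 0.0559 to 0.247, and under the filter filterByExpr at 1.67 (adjusted p = 0.0887). AAB over BBA was called in Tcm at 0.88 ± 0.15 (adjusted p = 0.0189), and lost without AAB replicate 1 at 0.83, AAB replicate 2 at 0.92 or BBA replicate 1 at 0.72, with adjusted p of 0.0630 to 0.0779. In Tem it was 0.91 ± 0.22 (adjusted p = 0.431) and was called with the replicate block at 0.91 (adjusted p = 0.0464). For WT over AAB the value was between 0.50 and 0.68 in the 3 states and was not called, with an adjusted p of 0.0502 in Tnv, or 0.115 at 0.69 without the WT library that stood apart.

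With IL-7 no such steps were seen for Socs1 in CD8+ cells. Tnv had 108 and 123 CPM in WT, 175 and 97.0 in AAB and 119 and 120.0 in BBA, and Tcm had 122 and 212 CPM in WT, 179 and 197 in AAB and 193 and 178 in BBA. The genotypes overlapped in both states, and WT over BBA was -0.08 ± 0.23 (adjusted p = 0.902) in Tnv and -0.36 ± 0.28 (adjusted p = 0.449) in Tcm. Set with IL-15 against IL-7, WT over BBA of Socs1 was higher by 1.41 ± 0.28 in Tnv (adjusted p = 0.0451, 1.05% of genes called) and by 1.74 ± 0.34 in Tcm (adjusted p = 0.175, 0.126% of genes). The Tcm value was called without the filter at 1.82 (adjusted p = 0.000150), with DESeq2 at 1.76 (adjusted p = 0.000297) and in 1 fit over all CD8+ libraries at 1.74 (adjusted p = 0.0123). The Tnv call was lost without each of 10 of the 12 libraries in turn, namely all but the AAB libraries with IL-7, with 1.32 to 1.49 and adjusted p of 0.0632 to 0.217, and the IL-7 and IL-15 libraries of Tnv differ in sex. For Cish in Tnv the same difference was -2.05 ± 0.49 (adjusted p = 0.0889), so that WT over BBA of Cish was smaller with IL-15 than with IL-7 but not called. Without the WT library that stood apart the difference was -2.50. With all libraries it was called without the filter at -1.95 (adjusted p = 0.000879), with DESeq2 at -2.05 (adjusted p = 0.00624), with the replicate block at -2.09 (adjusted p = 0.0374) and in 1 fit over all CD8+ libraries at -2.02 (adjusted p = 0.00735). The replicate numbers did not pass as pairing in the fit of Tnv with IL-15 and IL-7. Without cytokine Socs1 was at 53.8 to 103 CPM over the 18 CD8+ libraries of all genotypes, and no genotype difference was called. By group mean in WT the order was Tcm with IL-15 (231 ± 28.9 CPM, SD, n = 2), Tcm with IL-7 (167 ± 63.5), Tem with IL-15 (151 ± 46.8), Tnv with IL-7 (115 ± 10.7), Tnv with IL-15 (107 ± 2.58), Tcm without cytokine (80.9 ± 12.2), Tnv without cytokine (78.4 ± 16.9) and Tem without cytokine (72.8 ± 10.7). Neighbours overlapped at every step but that between Tnv with IL-15 and Tcm without cytokine.

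Socs3, which acts on receptors that use gp130, was the most abundant member. WT over AAB was not called in any of the 8 CD8+ conditions, where 0.0196% to 4.29% of all genes were called. WT over BBA was called in 1 of 8, against 0.206% to 23.5% of genes. These counts depend on the fit, as WT over BBA was called in 3 of 8 without the filter, in 2 with filterByExpr, the replicate block or 1 fit over all CD8+ libraries and in 1 with DESeq2, and WT over AAB in 1 without the filter or in 1 fit. The shares of all genes in those other fits are not given here. The condition called in the main fits was Tem with IL-15, where 1.76% of all genes were called. Socs3 was there at 209 and 161 CPM in WT, 172 and 129.9 in AAB and 78.7 and 77.5 in BBA. WT and AAB overlapped, and BBA was clear of both, at 42.3% of the WT mean. Between WT and BBA the difference was 1.18 ± 0.12 (adjusted p = 0.0225) and AAB over BBA 0.88 ± 0.12 (adjusted p = 0.291), the latter called with the replicate block at 0.88 (adjusted p = 0.0133). The WT over BBA call was lost without any of the 6 libraries, with 1.08 to 1.30 and adjusted p of 0.0538 to 0.198, and under filterByExpr at 1.29 (adjusted p = 0.0758). In Tcm with IL-15 it was at 266 and 305 CPM in WT, 280.4 and 256 in AAB and 152 and 173 in BBA. BBA was again below both other genotypes, but WT over BBA was 0.53 ± 0.13, which passed the test (adjusted p = 0.0157) and not the limit of 1.5-fold. It passed both under filterByExpr at 0.75 (adjusted p = 0.00166) and without the filter at 0.79 (adjusted p = 9.44e-07).

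In Tnv with IL-15 the Socs3 values were 233 and 904 CPM in WT, 169.6 and 204 in AAB and 95.7 and 169.6 in BBA. The value of 904 belongs to the WT library with Cd4 reads and is the highest Socs3 level of the series. For WT over BBA the value was 1.84 ± 0.57 (adjusted p = 0.0952), and 0.55 ± 0.27 (adjusted p = 0.335) without that library. With both WT libraries it was called without the filter at 2.12 (adjusted p = 1.33e-10), under filterByExpr at 2.02 (adjusted p = 0.0127), with the replicate block at 1.64 (adjusted p = 0.0299) and in 1 fit over all CD8+ libraries at 1.87 (adjusted p = 0.00286). The replicate numbers did not pass as pairing in Tnv with IL-15. With IL-7 Socs3 was at 201 to 338 CPM over the 12 libraries of Tnv and Tcm, and WT overlapped both deficient genotypes. In Tcm AAB lay above BBA, at 231 and 294 CPM against 216 and 217. The BBA mean of Socs3 was 79.1% of WT in Tcm with IL-7, and 105% to 127% in the IL-7 libraries of Tnv and in the 3 states without cytokine, and none of these differences was called. In WT the order of the means was Tnv with IL-15 (568 ± 475 CPM, SD, n = 2), Tcm with IL-15 (285 ± 27.5), Tcm with IL-7 (273 ± 90.6), Tnv with IL-7 (223 ± 27.2), Tnv without cytokine (202 ± 56.4), Tem with IL-15 (185 ± 33.8), Tcm without cytokine (183 ± 73.5) and Tem without cytokine (150.0 ± 65.9), and neighbours overlapped at every step. Tnv with IL-15 is first through the library at 904 CPM, and its other library lies between the means of Tcm and Tnv with IL-7.

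In naive CD4+ T cells the WT to BBA difference of 3 members was seen with IL-7. Cish was at 99.1, 127 and 109 CPM in WT, 91.0 and 51.0 in AAB and 18.7, 25.2 and 12.2 in BBA. Socs1 was at 81.0, 79.3 and 84.8 CPM in WT, 61.5 and 66.1 in AAB and 40.5, 43.1 and 36.9 in BBA. Socs2 was at 6.17, 9.16 and 6.87 CPM in WT, 4.70 and 3.52 in AAB and 1.12, 1.29 and 0.686 in BBA. For all 3 genes the genotypes formed steps without overlap, with BBA lowest. WT over BBA was 2.56 ± 0.28 (adjusted p = 0.000646) for Cish, 1.01 ± 0.08 (adjusted p = 8.48e-05) for Socs1 and 2.81 ± 0.34 (adjusted p = 0.00112) for Socs2, where 5.50% of all genes were called, and each was called without every library in turn. AAB over BBA was called as well, at 1.90 ± 0.30 (adjusted p = 0.0137) for Cish, 0.65 ± 0.08 (adjusted p = 0.00501) for Socs1 and 1.95 ± 0.37 (adjusted p = 0.0332) for Socs2, where 1.56% of genes were called. For Cish this was lost without BBA replicate 1 at 1.91 (adjusted p = 0.0538) or AAB replicate 2 at 1.42 (adjusted p = 0.0779), and for Socs2 without each library but BBA replicate 2, with 1.72 to 2.15 and adjusted p of 0.0581 to 0.193. Socs2 passed the filter here through WT alone. The WT over AAB difference was not called for any member. Socs3 was at 202, 248.5 and 253 CPM in WT, 239 and 237 in AAB and 175, 242 and 229.9 in BBA with IL-7, where the genotypes overlapped.

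Without cytokine the CD4+ cells differed from this pattern. Cish was at 31.6, 23.5 and 25.2 CPM in WT, 21.9 and 33.3 in AAB and 17.0 and 18.7 in BBA. WT and AAB overlapped and BBA was lowest, and WT over BBA was 0.58 ± 0.20 (adjusted p = 0.333). Socs1 was at 28.8, 32.6 and 32.4 CPM in WT, 32.6 and 47.3 in AAB and 35.8 and 42.1 in BBA, and Socs2 was at 0.109 to 0.484 CPM, or 1 to 6 counts, in all 7 libraries and was not tested. Socs3 ran the other way, with 102, 115 and 102 CPM in WT, 117 and 174 in AAB and 189 and 193 in BBA. The WT libraries were below all others. The WT over BBA difference was -0.84 ± 0.15 (adjusted p = 0.0382, 1.13% of genes called), the only genotype call of any member with the higher level in the deficient cells. It was lost without each WT or BBA library, with -0.91 to -0.80 and adjusted p of 0.0829 to 0.225. AAB over BBA was -0.39 ± 0.16 (adjusted p = 1, 0.0788% of genes).

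**Figure D3:**
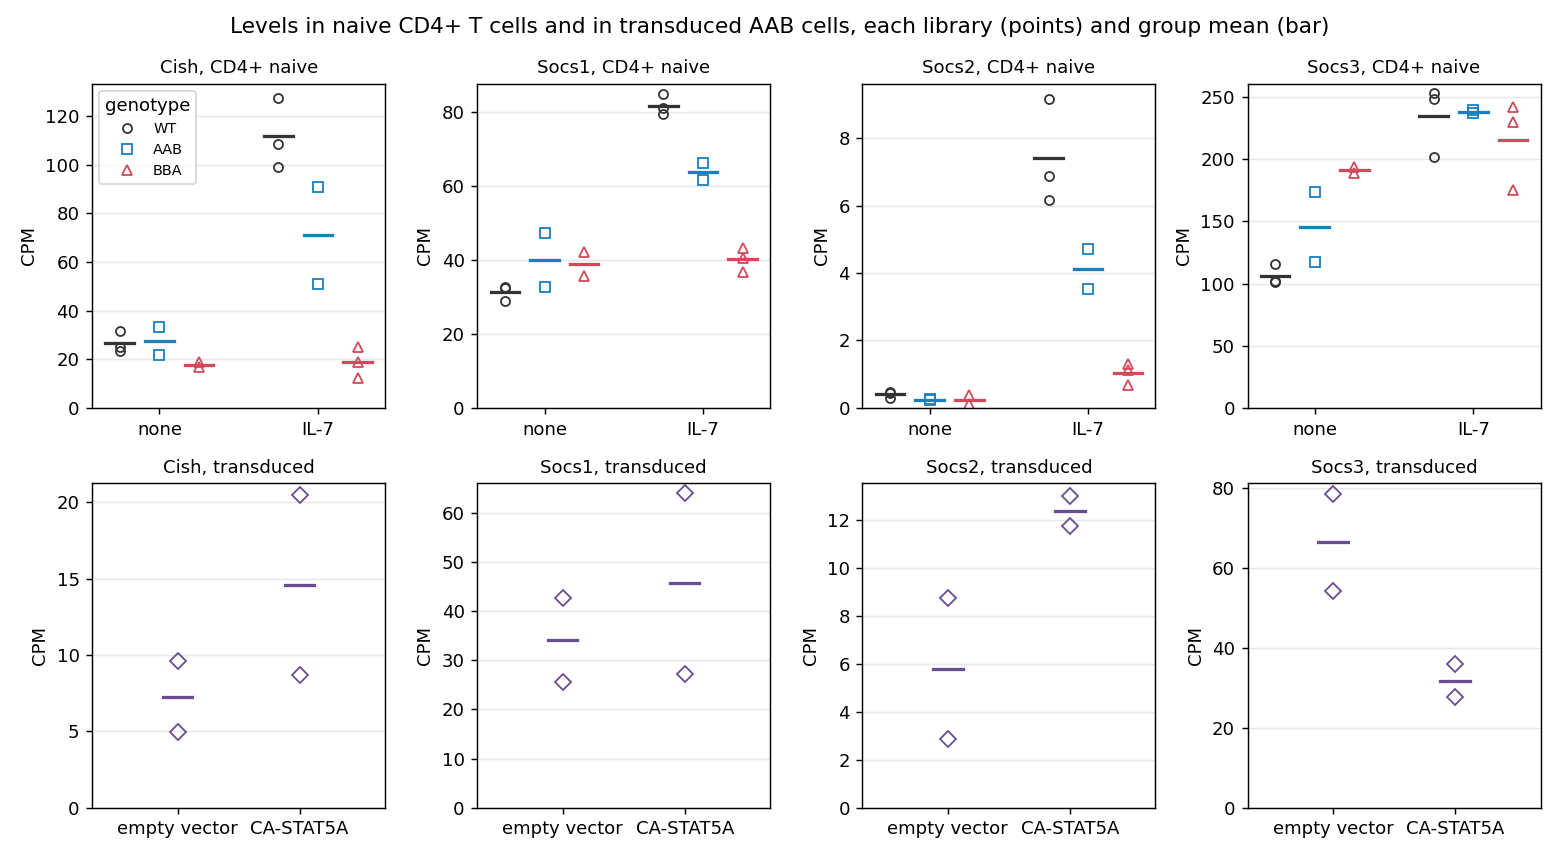
Level of each member (y axis, CPM) in naive CD4+ T cells without cytokine or with IL-7 (upper row, WT black circles, AAB blue squares, BBA red triangles) and in transduced AAB cells with empty vector or CA-STAT5A (lower row, purple diamonds), with a point for each library and a bar at the group mean. Cish, Socs1 and Socs2 rise with IL-7 in WT and stay lower in BBA, Socs3 lies between 175 and 253 CPM in all genotypes with IL-7, and in the transduced libraries Socs3 is at 36.0 and 27.6 CPM with CA-STAT5A, below both empty vector libraries.

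The next question was how far each genotype changed the level of these genes with cytokine. Over 4 genes and 6 pairs of conditions, the change was called in 12 of 24 cases in WT, where 0.259% to 19.5% of all genes were called. It was called in 11 of 24 in AAB, against 0.605% to 15.7% of genes, and in 6 of 24 in BBA, against 1.45% to 19.8% of genes. A rise of Socs2 was part of its being tested, so these shares are no background for it. Without Socs2 the counts were 8 of 18 in WT, 8 of 18 in AAB and 2 of 18 in BBA, and for Socs2 alone they were 4, 3 and 4 of 6. Comparisons within a cell state share the libraries without cytokine. Fold changes are of cytokine over no cytokine on the log2 scale.

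**Figure D4:**
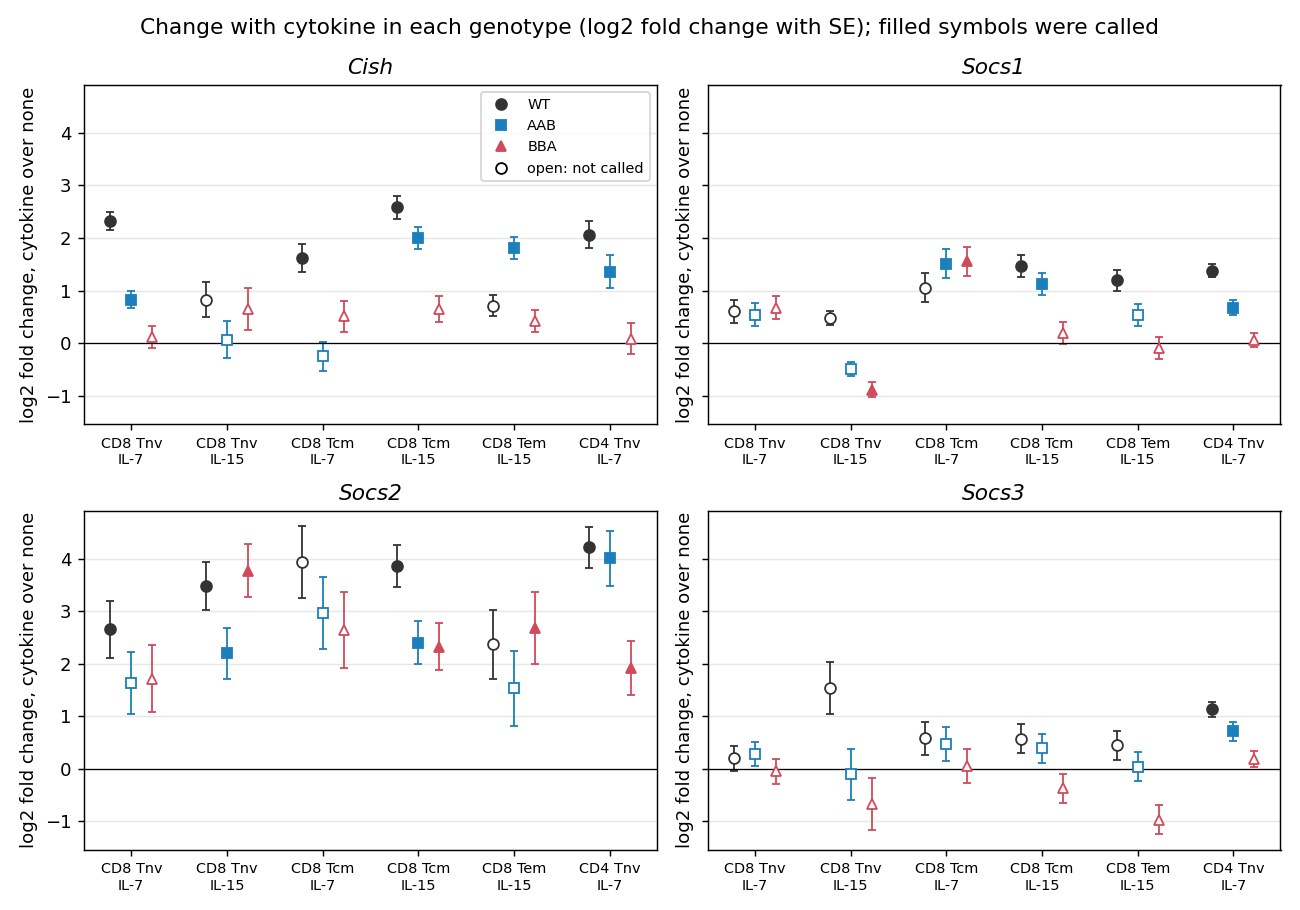
Log2 fold change with cytokine over no cytokine (y axis, with standard error) of each member in WT (black circles), AAB (blue squares) and BBA (red triangles) for the 6 pairs of conditions (x axis), filled where called. Cish is called in WT and AAB and in no BBA comparison, and Socs2 is called in all 3 genotypes, up to 4.21 in WT CD4+ cells.

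Cish rose with IL-7 in WT Tnv by 2.32 ± 0.17 (adjusted p = 2.73e-05), in WT CD4+ cells by 2.06 ± 0.25 (adjusted p = 4.43e-05) and in WT Tcm by 1.62 ± 0.27 (adjusted p = 0.0474), and with IL-15 in WT Tcm by 2.58 ± 0.22 (adjusted p = 0.000187, 8.62% of genes). The Tcm value with IL-7 rested on little, as it was lost without 11 of the 12 libraries in turn, the exception being WT replicate 1 with IL-7, with 1.39 to 1.65 and adjusted p of 0.0550 to 0.408. It was also lost in a fit of WT libraries only, at 1.61 (adjusted p = 0.102), and the WT libraries with IL-7 were male and those without cytokine female. With IL-15 the WT value was 0.83 ± 0.33 in Tnv (adjusted p = 0.149, 6.48% of genes), or 0.41 (adjusted p = 0.593) without the library that stood apart, and 0.71 ± 0.19 in Tem (adjusted p = 0.111), the latter called with the replicate block at 0.72 (adjusted p = 0.0129). In AAB, Cish rose by 2.001 ± 0.21 in Tcm (adjusted p = 0.00137, 3.69% of genes) and 1.81 ± 0.21 in Tem (adjusted p = 0.00449) with IL-15, and by 0.83 ± 0.17 in Tnv (adjusted p = 0.00785) and 1.36 ± 0.31 in CD4+ cells (adjusted p = 0.00649) with IL-7. Of these, the Tem value was lost without AAB replicate 1 without cytokine at 1.86 (adjusted p = 0.0529) and the Tnv value without AAB replicate 2 without cytokine at 0.81 (adjusted p = 0.0636). The CD4+ value was lost without AAB replicate 1 without cytokine at 1.10 (adjusted p = 0.0600) or AAB replicate 2 with IL-7 at 0.88 (adjusted p = 0.0756). In BBA no change of Cish was called, with values of 0.08 to 0.65 over the 6 pairs, of which Tcm with IL-15 was called with the replicate block, at 0.65 (adjusted p = 0.0464).

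These differences between genotypes were tested as interactions, that is the log2 change in WT minus that in the deficient genotype. For Cish, WT minus BBA was 2.21 ± 0.27 in Tnv with IL-7 (adjusted p = 0.00553, 2.46% of genes called), 1.93 ± 0.33 in Tcm with IL-15 (adjusted p = 0.00774, 7.73% of genes) and 1.98 ± 0.38 in CD4+ cells with IL-7 (adjusted p = 0.0197, 1.11% of genes). The first 2 were called without each library in turn. The CD4+ value was lost without WT replicate 2 or 3 or BBA replicate 1 or 2 without cytokine, at 1.90, 1.93, 2.04 and 1.91, or WT replicate 2 with IL-7, at 1.88, with adjusted p of 0.0542 to 0.105. WT minus AAB was called for Cish in Tnv with IL-7 only, at 1.49 ± 0.23 (adjusted p = 0.0335, 0.293% of genes). It was lost without 9 of the 12 libraries in turn, all but AAB replicate 2 and the BBA libraries with IL-7, with 1.29 to 1.74 and adjusted p of 0.0552 to 0.202, and in 1 fit over all CD8+ libraries at 1.49 (adjusted p = 0.0655). No interaction of AAB minus BBA was called for any member in the 24 tests. There edgeR called 0 to 0.115% of all genes, and DESeq2 called 1 member.

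Socs1 rose with IL-15 in WT Tcm by 1.46 ± 0.21 (adjusted p = 0.00238) and WT Tem by 1.19 ± 0.20 (adjusted p = 0.0222), and with IL-7 in WT CD4+ cells by 1.38 ± 0.12 (adjusted p = 2.21e-06). The Tem value was lost without WT replicate 1 without cytokine at 1.06 (adjusted p = 0.168), WT replicate 2 without cytokine at 1.36 (adjusted p = 0.0995) or WT replicate 1 with IL-15 at 1.004 (adjusted p = 0.142). In AAB it rose by 1.12 ± 0.21 in Tcm with IL-15 (adjusted p = 0.0157) and 0.67 ± 0.14 in CD4+ cells with IL-7 (adjusted p = 0.00439). The Tcm value was lost without each of the 4 AAB libraries, with 1.07 to 1.17 and adjusted p of 0.0695 to 0.114, and the CD4+ value was 0.44, under 1.5-fold, without AAB replicate 1 without cytokine (adjusted p = 0.0395). In BBA the values in these conditions were 0.19 ± 0.21, -0.09 ± 0.21 and 0.05 ± 0.13 for Tcm and Tem with IL-15 and CD4+ cells with IL-7, and BBA Tnv given IL-15 had less Socs1, which fell by 0.88 ± 0.14 on the log2 scale (adjusted p = 0.00145), called without each library in turn. It was the only called decrease of a member with cytokine. WT Tnv with IL-15 had 0.48 ± 0.14 (adjusted p = 0.0557) and AAB -0.49 ± 0.14, which passed the test (adjusted p = 0.0262) and not the limit of 1.5-fold.

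WT minus BBA for Socs1 was 1.36 ± 0.20 in Tnv with IL-15 (adjusted p = 0.00917, 2.54% of genes), 1.27 ± 0.29 in Tcm with IL-15 (adjusted p = 0.0278) and 1.32 ± 0.18 in CD4+ cells with IL-7 (adjusted p = 0.00137). The Tnv value was 1.39 (adjusted p = 0.0222) without the WT library that stood apart, and the first and the last were called without each library in turn. The Tcm value was lost without 8 of the 12 libraries, namely all 6 with IL-15, WT replicate 1 and BBA replicate 2 without cytokine, with 0.90 to 1.40 and adjusted p of 0.0506 to 0.108. With IL-7 in Tcm the picture for Socs1 was different, as it rose by 1.51 ± 0.28 in AAB (adjusted p = 0.0467) and 1.55 ± 0.28 in BBA (adjusted p = 0.0387). In WT it had 1.05 ± 0.28 (adjusted p = 0.113), and WT minus BBA was -0.50 ± 0.39 (adjusted p = 0.682, 0.0865% of genes, and 0.00961% for WT minus AAB). The AAB call was lost without all but the 2 WT libraries with IL-7 and the BBA call without all but the 4 WT libraries, with adjusted p of up to 0.288 and 0.187 and values of 1.46 to 1.57 and 1.28 to 1.89.

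Socs2 rose in all genotypes, from 1 to 50 counts per library without cytokine. In WT it rose by 2.65 ± 0.55 in Tnv with IL-7 (adjusted p = 0.00578), 3.48 ± 0.45 in Tnv with IL-15 (adjusted p = 0.00153), 3.86 ± 0.40 in Tcm with IL-15 (adjusted p = 0.000575) and 4.21 ± 0.39 in CD4+ cells with IL-7 (adjusted p = 3.84e-06), all called without each library in turn. In BBA, where Cish showed no called change, Socs2 rose by 3.77 ± 0.51 in Tnv (adjusted p = 0.000518), 2.32 ± 0.45 in Tcm (adjusted p = 0.0101) and 2.67 ± 0.68 in Tem (adjusted p = 0.0405) with IL-15 and by 1.91 ± 0.51 in CD4+ cells with IL-7 (adjusted p = 0.0137). The Tnv value was called without each library. The Tcm value was lost without BBA replicate 2 without cytokine at 1.89 (adjusted p = 0.0760) or with IL-15 at 2.18 (adjusted p = 0.0651). Lost as well was the CD4+ value without BBA replicate 1 without cytokine, at 1.46 (adjusted p = 0.0879). The Tem value was lost without 9 of the 12 libraries, all but BBA replicate 1 and the AAB libraries with IL-15, with 1.53 to 2.84 and adjusted p of 0.0558 to 0.213. In AAB, Socs2 rose by 2.20 ± 0.48 in Tnv (adjusted p = 0.00903) and 2.40 ± 0.41 in Tcm (adjusted p = 0.0115) with IL-15 and by 4.002 ± 0.52 in CD4+ cells with IL-7 (adjusted p = 0.000163). The Tnv value was lost without AAB replicate 1 without cytokine at 1.69 (adjusted p = 0.0718) or AAB replicate 2 with IL-15 at 1.98 (adjusted p = 0.0531). The Tcm value was lost without AAB replicate 2 without cytokine at 1.96 or either AAB library with IL-15 at 2.38 and 2.41, with adjusted p of 0.0640 to 0.0837. In WT Tem with IL-15 the value was 2.37 ± 0.65 (adjusted p = 0.117), called with the replicate block at 2.35 (adjusted p = 0.0281). No interaction was called for Socs2, with WT minus BBA between -0.31 and 2.30 and standard errors of 0.61 to 0.99, so a difference of up to several fold was not detectable at these counts. As Socs2 passed the filter through cytokine groups alone, a rise was part of its being tested.

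Socs3 rose with IL-7 in CD4+ cells, by 1.14 ± 0.14 in WT (adjusted p = 5.01e-05) and 0.71 ± 0.17 in AAB (adjusted p = 0.00926), and had 0.19 ± 0.16 in BBA (adjusted p = 0.395), where the level without cytokine was already as high as 189 and 193 CPM. WT minus BBA was 0.95 ± 0.21 (adjusted p = 0.0462). That call was lost without 11 of the 15 libraries in turn, with 0.82 to 1.02 and adjusted p of 0.0603 to 0.150, and was kept without either AAB library without cytokine, WT replicate 1 with IL-7 or BBA replicate 2 with IL-7. The AAB value was lost without AAB replicate 1 without cytokine at 0.46 (adjusted p = 0.0813). In CD8+ cells no change of Socs3 was called. The values ranged in WT from 0.20 ± 0.23 in Tnv with IL-7 to 1.54 ± 0.50 in Tnv with IL-15 (adjusted p = 0.0821), which was 0.24 ± 0.30 without the WT library that stood apart. With the replicate block Socs3 was called in WT Tcm with IL-15 at 0.61 (adjusted p = 0.0368), with WT minus BBA at 0.96 (adjusted p = 0.0295), and in BBA Tem with IL-15 at -0.95 (adjusted p = 0.0118), where the value without it was -0.97 ± 0.28 (adjusted p = 0.0575).

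Cell states were compared in WT cells of the same culture. Without cytokine, Cish was higher in Tem than in Tcm by 2.103 ± 0.23 (adjusted p = 0.00483, 1.07% of genes called). This was lost without WT Tcm replicate 1 at 2.14 (adjusted p = 0.0578), WT Tcm replicate 2 at 2.07 (adjusted p = 0.0715) or WT Tem replicate 1 at 1.86 (adjusted p = 0.0557). Tcm over Tnv without cytokine was -0.51 for Cish and was not called, Socs1 and Socs3 had -0.27 to 0.02 in both comparisons without cytokine, and Socs2 was not tested there. With IL-15, Cish was higher in Tcm than in Tnv by 1.26 ± 0.31 (adjusted p = 0.0235) and Socs1 by 1.02 ± 0.13 (adjusted p = 0.00103), where 10.5% of genes were called. Without the WT Tnv library that stood apart these were 1.68 (adjusted p = 0.0217) and 0.99 (adjusted p = 0.00946). The Cish call was lost without WT Tnv replicate 1 at 0.94 (adjusted p = 0.0987), WT Tcm replicate 1 at 1.10 (adjusted p = 0.158) or WT Tcm replicate 2 at 1.40 (adjusted p = 0.0560). Socs3 was at -1.10 for Tcm over Tnv and at 0.20 without that library, neither called. Tem over Tcm with IL-15 had no call, with values of -0.36 to 0.27. Whether the genotype difference itself changed between cell states with IL-15 was tested for all 4 genes in 2 pairs of states, and no change was called, where 0.00957% to 0.194% of genes were called for BBA. For Socs2 the BBA effect in Tcm over Tnv differed by 1.82 ± 0.36, and by 1.87 without the WT Tnv library that stood apart. With all libraries it was called with DESeq2 at 1.83 (adjusted p = 0.00433), with the replicate block at 1.83 (adjusted p = 0.0277) and with a block within each condition at 1.81 (adjusted p = 0.0400). For Cish the BBA effect differed by 1.21 ± 0.51, and by 1.63 without that library. With all libraries the Cish value was called with the block within each condition at 1.20 (adjusted p = 0.0336). The replicate numbers did not pass as pairing in the fit of Tcm and Tnv with IL-15, nor in Tnv with IL-15 by itself.

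In the transduced libraries Stat5a was at 60.7 and 60.9 CPM with CA-STAT5A and 3.17 and 8.35 with empty vector, so that the libraries differed in the transduced gene as labelled. Stat5b, which is not the transduced gene, differed as well, at 132 to 150 CPM with CA-STAT5A and 61.4 to 72.6 with empty vector. The reason was not tested. Socs3 was at 36.0 and 27.6 CPM with CA-STAT5A and 54.2 and 78.6 with empty vector, without overlap, and CA-STAT5A over empty vector was -1.09 ± 0.22 (adjusted p = 0.0344, 6.63% of genes called). The call was lost without either CA-STAT5A library, at -1.28 (adjusted p = 0.0685) and -0.92 (adjusted p = 0.102). Cish was at 20.5 and 8.67 CPM with CA-STAT5A and 9.58 and 4.96 with empty vector, and Socs2 at 11.7 and 13.002 against 8.74 and 2.84. The groups overlapped for Cish and not for Socs2, and neither was called, at 0.98 ± 0.46 (adjusted p = 0.292) and 1.06 ± 0.46 (adjusted p = 0.264). Socs1 was at 64.1 and 27.2 against 25.7 and 42.6 CPM. Each group had 1 male and 1 female library, and within the male pair the CA-STAT5A level was 2.14 times the empty vector level for Cish, 2.50 for Socs1, 1.34 for Socs2 and 0.665 for Socs3. Within the female pair it was 1.75 for Cish, 0.639 for Socs1, 4.57 for Socs2 and 0.351 for Socs3, so that Socs1 ran in opposite directions in the 2 pairs. The myeloid markers (Csf1r, Itgam and Lyz2) summed to 1317 and 1153 CPM with CA-STAT5A and to 555 and 430.2 with empty vector, and the NK markers (Klrb1c, Ncr1 and Nkg7) to 3275 and 3327 against 2862 and 2566. The T cell markers (Cd3d, Cd3e and Cd3g) ran the other way, with 19.5 and 45.0 CPM against 104 and 209.8, as did the pair Cd79a and Ms4a1 of B cells, with 4.996 to 14.6 against 45.1 to 79.8. All 4 sums separated the groups as Socs3 did, and their part in its difference was not tested.

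The rest of the feedback machinery was read from 4 lists. Socs4, Socs5, Socs6 and Socs7, the other members of the family, gave no call in 40 tests of WT over BBA over the 10 conditions, where 0.206% to 23.5% of all genes were called. The 6 SOCS box partners (the elongins Tceb1 and Tceb2, the cullins Cul2 and Cul5, and Rbx1 and Rnf7) gave none in 60 tests. Among 11 other inhibitors of JAK-STAT signaling, which are phosphatases, PIAS proteins, Sh2b3 and Usp18, 0 were called higher and 1 lower in WT in 110 tests. The exception was Pias3, a SUMO ligase, at -0.76 ± 0.12 (adjusted p = 0.00291) in Tcm with IL-15. The 14 receptors and kinases the inhibitors act on gave 12 calls higher and 8 lower in WT in 139 tests, against the same 0.206% to 23.5% of genes. Medians of the lists over the 10 conditions lay between -0.29 and 0.35, and medians of all genes tested between -0.02 and 0.01. Il2ra, the high affinity chain of the IL-2 receptor, was called in 4 of 10 conditions, at 1.91 in Tnv with IL-7, 2.31 in Tcm with IL-7, 0.94 in Tcm with IL-15 and 2.75 in CD4+ cells with IL-7. Among the list genes called in Tcm with IL-15, Il2rb, the signaling chain shared by IL-2 and IL-15, was higher in WT by 1.28 ± 0.09 (adjusted p = 0.000202), and Il7r, the IL-7 receptor chain, lower in WT at -1.33 ± 0.21 (adjusted p = 0.00291). For WT over AAB the receptors and kinases gave 4 calls higher and 0 lower in 139 tests, and the other inhibitors 0 higher and 1 lower in 110. The other SOCS genes and the SOCS box partners gave none in 40 and 60 tests. Of all genes, 0.0196% to 4.29% were called for WT over AAB, depending on the condition. In the transduced libraries 1 receptor or kinase was called higher and 6 lower of 14, where 6.63% of all genes were called.

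Over the 24 group means of CD8+ cells, genes were ranked by Pearson's r with each member among 10275 genes, as a description of points that share cells, culture and library. The closest to Cish were Tbc1d16 (0.86), Sept9 (0.84), Rxra (0.83), Mbd2 (0.83) and Nif3l1 (0.80). Those of Socs1 were Psmc2 (0.88), Ccz1 (0.88), Aacs (0.88), Vps26a (0.87) and Tubb4b (0.87), and those of Socs2 were Il2ra (0.84), Crtap (0.82), S100a13 (0.81), Cenpb (0.80) and Haghl (0.79). For Socs3 they were Tvp23a (0.86), Nap1l4 (0.84), Nubp1 (0.81), Larp4b (0.81) and Rbfa (0.80). No member was among the 5 closest genes of another. Between members r was 0.63 for Cish and Socs2, 0.61 for Socs1 and Socs3, 0.46 for Socs1 and Socs2, 0.42 for Cish and Socs1, 0.18 for Socs2 and Socs3 and 0.16 for Cish and Socs3.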

How the data were processed

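Poly(A)+ RNA from sorted mouse T cells was sequenced, and the authors aligned reads with TopHat2 and counted them per gene with HTSeq. The genome build was mm10 in the methods and mm9 in the submitters' processing notes, and the annotation and strand setting are not given in the sources used here. The deposited values are raw counts per gene. Among the transduced libraries, 5 summary rows held 67.0% to 68.4% of all counts and were left out. The members and lists were chosen with earlier results of these data known. The text names the 4 members, Stat5a, Stat5b, the marker genes, the 5 genes most alike each member, and list genes called in WT over BBA in at least 4 of 10 conditions or with the largest change in Tcm with IL-15, at most 2 a list.

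Counts were tested with edgeR 4.0.16 in R 4.3.3 (TMM, quasi-likelihood test in its older form), after a filter that kept genes with a normalized count over the value that maximizes the Jaccard index of replicates. The filter was computed as the maximum of a loess fit (span 0.3) over 100 values from 1 to 200, giving 40.2 to 117 normalized counts and 9488 to 10485 genes over 23 fits. A call needed a fold over 1.5 and a Benjamini-Hochberg adjusted p under 0.05 over all genes tested. Genotypes were compared within a condition, and cytokines and cell states in fits over 2 conditions with all genotypes. Alternatives were DESeq2 1.42.0, no filter, filterByExpr, 1 fit per lineage, a replicate block, a sex term and leaving out each library. In the self-test on simulated counts, only genes above a minimum mean count were changed. Of 100 genes changed by 2-fold, 80 were recovered in WT over BBA in Tcm with IL-15. There 10078 genes were tested and 13 unchanged genes were called. In the transduced libraries 74 of 100 were recovered, and in CD4+ cells with IL-7 88. Tem with IL-15, the condition with the widest spread between libraries, was not simulated, so these shares do not carry over to it.

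Replicate numbers were taken as pairing where every correlation of same-numbered deviations was over 0.1. This held in 7 of 10 conditions (0.102 to 0.793) and in 2 of 12 fits over 2 conditions, Tcm and Tem with IL-15 over no cytokine. Likeness was computed on log2(CPM + 1) for genes with a mean count over 50. Replicate libraries differed by more than sampling noise in all 38 pairs, with a chi-square per degree of freedom of 5.50 to 93.2. Sequences came from RefSeq promoters of GRCm38.p6. CD4+ libraries whose title and treatment label disagree were put in no group. Of the B cell marker list 2 genes are reported, and the rest of its result is not reported here. Their sums were added after seeing the data.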

Additional observations from a re-analysis of the deposited data

Results flagged for a closer look

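A difference between genotypes in the effect of cytokine was called in 7 of 24 tests of WT minus BBA, where 0.00954% to 7.73% of all genes were called. It was called in 1 of 24 tests of WT minus AAB, against 0% to 0.351% of genes. Each value is the log2 change in WT minus that in the deficient genotype. For Cish it was 2.21 for WT minus BBA and 1.49 for WT minus AAB in Tnv with IL-7, 1.93 for WT minus BBA in Tcm with IL-15 and 1.98 for WT minus BBA in CD4+ cells with IL-7. For Socs1, WT minus BBA was 1.36 in Tnv with IL-15, 1.27 in Tcm with IL-15 and 1.32 in CD4+ cells with IL-7. For Socs3 it was 0.95 in CD4+ cells with IL-7. A difference between cytokines in the effect of genotype was called for Socs1 in Tnv, where 1.05% of genes were called. There WT over BBA was higher by 1.41 with IL-15 than with IL-7. This call was lost without some single libraries, as given above. So were those of Cish for WT minus AAB and in CD4+ cells, of Socs1 in Tcm and of Socs3. In Tnv the IL-7 libraries of all genotypes were male and the others female. These values of Cish with IL-7 in Tnv and of Socs1 between cytokines therefore cannot be told apart from an effect of sex that differs between genotypes. Groups held 2 or 3 libraries, too few for a test of single libraries that lie apart.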

How the results depend on the processing

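Of 68 calls, 416 of 424 values with all libraries stayed called and 8 were lost, and in fits without 1 library 534 of 700 values stayed called and 166 were lost, with 31 calls kept in every such fit and no call reversed. When 1 library was left in a group, it was assumed to vary like the others. The 68 calls came from 316 comparisons of a member, of which 302 were tested. The counts below are out of 32 for a genotype contrast in CD8+ conditions and 8 in CD4+ conditions. They are out of 24 for a response or interaction, 16 for a difference between cytokines or states and 4 in the transduced libraries. The shares of all genes called under each setting are not given here, so a rise is not a result about the members. The replicate block was also fitted where the numbers did not pass as pairing. WT over AAB in CD8+ conditions rose from 3 calls to 12 with no filter, 7 with filterByExpr, 9 with DESeq2, 8 with the replicate block and 9 in 1 fit over all libraries, and ranged from 2 to 5 without 1 library. AAB over BBA in CD8+ conditions rose from 4 to 8 with no filter or DESeq2 and 7 with the replicate block, and in CD4+ conditions 3 calls ranged from 1 to 3 without 1 library. The 6 responses in BBA became 10 with no filter. The interaction WT minus AAB went from 1 call to 4 with no filter, 3 with DESeq2 and 2 with the replicate block, ranging from 0 to 2 without 1 library, and AAB minus BBA from 0 to 1 with DESeq2. Differences of the BBA effect between cytokines or states went from 1 call to 4 with no filter or DESeq2, 2 with the replicate block, 4 with the block within each condition and 3 in 1 fit, ranging from 0 to 3 without 1 library. Those of the AAB effect went from 0 to 3 with no filter and 1 with DESeq2, ranging from 0 to 2. In the transduced libraries 1 call became 3 with no filter and ranged from 0 to 2. The cause was not tested. The fits without a filter differ in the genes tested.

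The replicate block ended the calls of Cish in WT Tcm with IL-7, at 1.62 (adjusted p = 0.0532, edgeR), and of the Socs1 difference between IL-15 and IL-7 in Tnv, at 1.41 (adjusted p = 0.0585, edgeR), both in fits whose numbers did not pass as pairing, and filterByExpr ended the Socs1 response in BBA Tcm with IL-7, at 1.44 (adjusted p = 0.0509, edgeR). The replicate block reversed small uncalled values of Socs1 in Tem and Cish in CD4+ cells without cytokine and of Socs3 in CD4+ cells with IL-7, at -0.00, 0.01 and 0.08 for WT over AAB. In the transduced libraries 1 empty vector title has no replicate number, so no block by number was fitted. A sex term there, chosen after seeing the data, sets 1 male and 1 female library of each group side by side as a block of pairs would, and gave 0.93 for Cish (adjusted p = 0.0598, edgeR) and -1.07 for Socs3 (adjusted p = 0.00862, edgeR). Among uncalled values 15 changed sign with all libraries and 124 without 1 library. CPM of the plain total moved 128 group levels by -13.6% to 23.2%. Socs2 without cytokine rests on 1 to 50 counts, too few to test.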

Other observations

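Naive CD4+ libraries whose title gives no cytokine and whose treatment label gives IL-7 were in no comparison, 1 from AAB and 1 from BBA. Cish was at 27.0 CPM in the AAB library and 11.5 in the BBA library, Socs1 at 48.1 and 38.0, Socs2 at 0.153 and 0.279 and Socs3 at 137 and 176.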
